A study of Homo sapiens with 6 samples.

Results

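The genes described are 10 genes of the epithelial tight junction, taken by symbol from the 41768 named genes of the deposited table. They are the claudins CLDN1, CLDN3, CLDN4 and CLDN7, the strand protein gene OCLN, the adhesion gene F11R, the scaffold genes TJP1 and TJP3, and EPCAM and RAB25, which act beside the junction. All 10 symbols were in the table, and all 10 reached a mean of 1 FPKM over the libraries, the level set for testing. FPKM scales the fragments of a gene by its length and by the fragments assigned to genes in the library, so levels can be compared between genes. The series holds 6 libraries of poly(A)-selected RNA from pancreatic ductal adenocarcinoma (PDAC) cells of 2 lines, PANC-1, an established human line, and a line called 90 in the labels. Each line has 2 libraries labelled siALDOA, numbered 1 and 2, and 1 labelled NC. By its name, siALDOA is taken as a small interfering RNA to ALDOA, the gene of the glycolytic enzyme aldolase A. The labels do not say what 90 and NC stand for or whether siALDOA 1 and 2 are different siRNAs. Nor do they say whether the libraries are separate cultures, so the p-values cover the spread among these libraries alone, which may be technical.

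Tight junctions lie near the apical end of the contact between epithelial cells and close the space between them. Claudins are membrane proteins that polymerise into strands and set which ions and solutes pass, and occludin and the F11R product JAM-A sit in or next to the strands. The ZO proteins, encoded by TJP1 and TJP3, bind the tails of claudins under the membrane and tie them to actin. EPCAM is a surface protein of epithelial cells and carcinomas that binds claudin-7, and RAB25 is a small GTPase of the RAB11 family that recycles membrane proteins in epithelial cells. In pancreatic carcinomas the junction proteins mark epithelial differentiation, and CLDN4 is often abundant.

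Depth was 17773531 to 21844207 assigned fragments per library. ALDOA stood at 501 and 462 FPKM in PANC-1 siALDOA 1 and 2 against 906 in PANC-1 NC, and at 262 and 318 FPKM in 90 siALDOA 1 and 2 against 726 in 90 NC. The libraries also differed by GC content of the transcripts. Of 8 equal classes of tested genes, the class with the lowest GC content had a median log2 change from NC of -1.02 and 0.56 in PANC-1 siALDOA 1 and 2 and of 1.40 and 0.12 in 90 siALDOA 1 and 2. PANC-1 siALDOA 1 also held 23356 genes above 0, against 19171 to 20371 in the other libraries. Of 5 epithelial markers, KRT8 and KRT18 were at 956 FPKM or more in every library and did not pass the test, while 3 were lower in PANC-1. These were KRT7, at 6.24 to 11.5 FPKM in PANC-1 and 905 to 1350 in the 90 line, CDH1, at 1.18 to 2.05 in PANC-1 and 38.0 to 44.5 in the 90 line, and KRT19, at 652 to 845 in PANC-1 and 1720.4 to 2427 in the 90 line. Of 4 mesenchymal markers, VIM, CDH2 and SPARC were higher and FN1 lower in PANC-1. SPARC reached the level for testing through PANC-1 alone and FN1 through 90 alone. The 7 fibroblast markers summed to 10.5 to 14.4 FPKM in PANC-1 and 1.32 to 1.77 in the 90 line, nearly all of it COL1A1 (9.96 to 13.7 FPKM in PANC-1, 1.20 to 1.68 in the 90 line, called higher), with DCN at 0.0224 or less. The 5 acinar markers summed to 0.208 to 0.380 FPKM in PANC-1 and 0.547 to 0.977 in the 90 line, with PRSS1 at 0.482 to 0.579 in the 90 line and PNLIP at 0 throughout. The leukocyte genes PTPRC and CD3E were at 0.0347 FPKM or less. In the 90 line, CDH5, a marker of endothelium, averaged 3.18 FPKM and PECAM1 0.492. The other endothelial markers VWF, CLDN5 and KDR averaged 0.0986, 0.0860 and 0.00289 FPKM there. In PANC-1 CDH5 was listed at 0, PECAM1, VWF and CLDN5 averaged 0.0127 or less, and KDR 0.0192. The part of endothelial cells in the results was not tested. CD68, used as a macrophage marker, was at 124 to 162 FPKM in PANC-1 and at 31.3 to 51.2 in the 90 line. In bulk RNA, fewer cells of a type and less RNA per cell cannot be told apart.

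The comparison of the lines asks how far the tight junction program differs between PANC-1 and the 90 line, over siALDOA and NC libraries alike. PANC-1 was lower in CLDN1, CLDN7, F11R, TJP3, EPCAM and RAB25 and higher in CLDN3 and OCLN, while CLDN4 and TJP1 did not pass the test. RAB25 and TJP3 were near the detection floor in PANC-1, whereas CLDN4 was among the 2 highest of the 10 genes in each line. In limma, at a Benjamini-Hochberg adjusted p under 0.05, 8 of the 10 genes were called, 6 lower and 2 higher in PANC-1. Of all 12592 tested genes 38.8% were called, 18.4% lower and 20.4% higher. The median log2 difference was -1.65 over the 10 genes and 0.13 over all tested genes. After scaling by the median ratio the median over all genes was 0.01. Of the 10 genes, 4 reached the level for testing through only 1 line, RAB25 and TJP3 through 90 and CLDN3 and OCLN through PANC-1. Their mean levels thus had to differ between the lines. At an unadjusted p under 0.05, 8 of the 10 passed, as did 47.3% of all tested genes. The libraries of a line are repeats of 1 line, so the comparison is between these 2 lines.

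**Figure D1:**
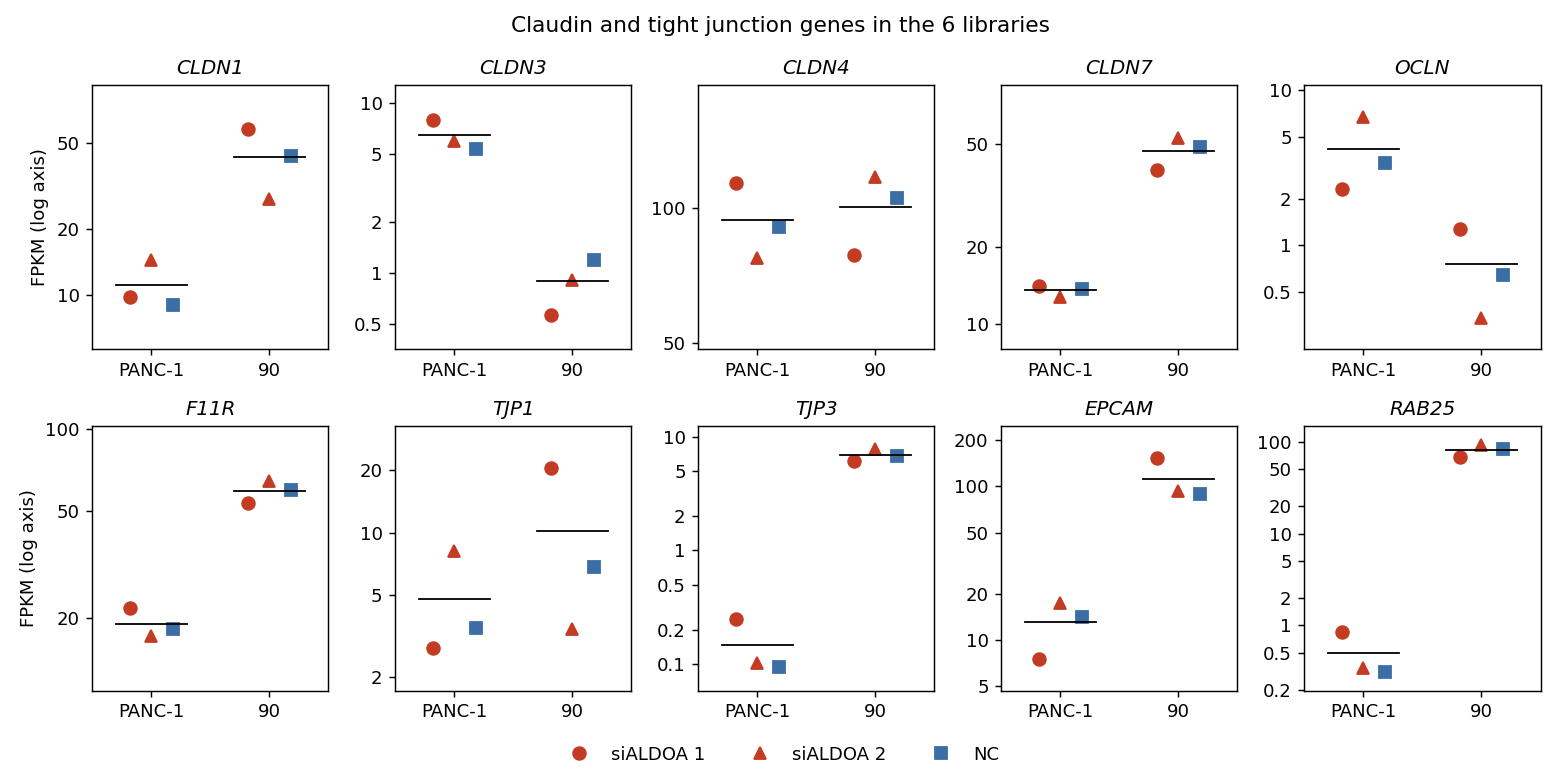
FPKM of each gene (log axes that differ between panels) in the 3 libraries of PANC-1 and of the 90 line, with circles for siALDOA 1, triangles for siALDOA 2, squares for NC and a line at the mean of the 3. For CLDN4 and TJP1 the ranges of the lines overlap, and for the other genes they do not. The share of all tested genes without overlap was not counted. RAB25, TJP3, CLDN3 and OCLN reached the level for testing through only 1 line, so their mean levels had to differ.

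Among the claudins, CLDN4 was the most abundant and did not differ beyond the spread of the libraries. It stood at 114 and 77.6 FPKM in PANC-1 siALDOA 1 and 2 and 90.9 in PANC-1 NC, and at 78.7 and 117 FPKM in 90 siALDOA 1 and 2 and 105 in 90 NC. The ranges overlap almost fully, with a log2 difference, PANC-1 minus 90, of -0.09 on the log2(FPKM + 1) scale (95% interval -0.68 to 0.50, limma adjusted p = 0.806). The interval still allows a difference in either direction.

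CLDN7, the claudin that binds EPCAM, was at 14.1 and 12.8 FPKM in PANC-1 siALDOA 1 and 2 and 13.7 in PANC-1 NC, and at 39.5 and 52.7 FPKM in 90 siALDOA 1 and 2 and 48.4 in 90 NC. All PANC-1 libraries lay within a narrow band below every 90 library, and the mean was 3.46-fold lower in PANC-1 (log2 difference -1.71, SE 0.158, limma adjusted p = 0.00128). Of its 2492 exonic bases (GENCODE v29), 269 are shared with another locus on the same strand. CLDN1, a barrier-forming claudin also abundant in skin, was at 9.79 and 14.4 FPKM in PANC-1 siALDOA 1 and 2 and 8.93 in PANC-1 NC, against 57.9 and 27.7 FPKM in 90 siALDOA 1 and 2 and 43.4 in 90 NC. It was lower in PANC-1 without overlap (log2 difference -1.84, SE 0.336, limma adjusted p = 0.0112), but the siALDOA libraries of the 90 line differed from each other by more than 2-fold. This call ended without 90 NC (limma adjusted p = 0.0798) or without PANC-1 NC (0.0768), with 1.49e-05 to 0.0798 over the 19 alternatives run.

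CLDN3 went the other way. It stood at 8.01 and 5.95 FPKM in PANC-1 siALDOA 1 and 2 and 5.40 in PANC-1 NC, and at 0.564 and 0.907 FPKM in 90 siALDOA 1 and 2 and 1.19 in 90 NC. The mean was 7.27-fold higher in PANC-1 and the lines did not overlap (log2 difference 1.98, SE 0.241, limma adjusted p = 0.00301). The values of the 90 line rest on 14, 22 and 27 fragments in siALDOA 1, siALDOA 2 and NC. CLDN3 and CLDN4 are neighbours on chromosome 7 (GRCh38, GENCODE v29), with CLDN3 at 73768997 to 73770270 on the minus strand and CLDN4 at 73799542 to 73832693 on the plus strand, and of the pair CLDN3 was called and CLDN4 was not. CLDN7 lies on chromosome 17 (7259903 to 7263983, minus strand) and CLDN1 on chromosome 3 (190305701 to 190322475, minus strand).

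As a group, the claudins summed to 156 and 128 FPKM in PANC-1 siALDOA 1 and 2 and 131 in PANC-1 NC, against 201 and 216 FPKM in 90 siALDOA 1 and 2 and 214 in 90 NC. Over the 23 claudin genes of the table, CLDN4 made up 67.6% ± 6.48 of the sum in PANC-1 and 47.6% ± 7.69 in the 90 line (SD, n = 3 each). Its share was higher in every PANC-1 library than in any 90 library (exact permutation test, two-sided, p = 0.1, the smallest that 3 against 3 allows). CLDN7 took 9.83% ± 0.717 in PANC-1 and 22.2% ± 2.38 in the 90 line. CLDN1 took 8.09% ± 2.70 in PANC-1 and 20.6% ± 8.01 in the 90 line, and CLDN3 4.63% ± 0.512 in PANC-1 and 0.419% ± 0.139 in the 90 line. These 4 claudins together held 86.3% to 93.6% of the sum in PANC-1 and 87.9% to 92.8% in the 90 line.

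**Figure D2:**
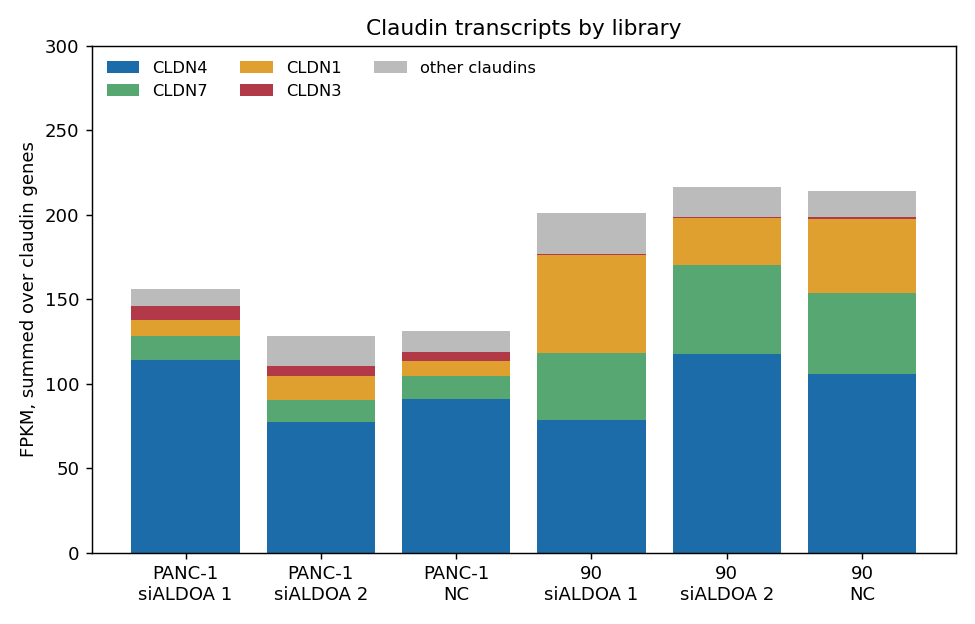
FPKM summed over the 23 claudin genes in each library, PANC-1 on the left and the 90 line on the right, split by gene. The PANC-1 sums lie at 128 to 156 FPKM and those of the 90 line at 201 to 216, and CLDN4 is the largest part in every library.

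Of the other 19 claudins, 4 reached the level for testing and 2 were called, both lower in PANC-1 (18.4% of all tested genes were lower). CLDN23 averaged 2.54 ± 0.440 FPKM in PANC-1 and 6.93 ± 0.894 in the 90 line (SD, n = 3 each; log2 difference -1.16, limma adjusted p = 0.00856). CLDN11 averaged 1.17 ± 0.343 FPKM in PANC-1 and 2.52 ± 0.241 in the 90 line (log2 difference -0.71, limma adjusted p = 0.0431). CLDN10, below the level for testing, was at 1.46 and 2.01 FPKM in PANC-1 siALDOA 1 and 2 and 1.42 in PANC-1 NC, and listed at 0 in all 3 libraries of the 90 line. It was singled out after its values were seen.

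OCLN and F11R, the genes of occludin and JAM-A, differed between the lines in opposite directions. OCLN was at 2.30 and 6.75 FPKM in PANC-1 siALDOA 1 and 2 and 3.41 in PANC-1 NC, against 1.28 and 0.343 FPKM in 90 siALDOA 1 and 2 and 0.646 in 90 NC. The lines did not overlap, the mean was 5.48-fold higher in PANC-1, and the spread within each line was wide (log2 difference 1.49, SE 0.405, limma adjusted p = 0.0392). Of 19 alternatives 7 ended the call, with limma adjusted p from 1.15e-06 to 0.151, among them leaving out 90 NC (0.149), 90 siALDOA 1 (0.0510), 90 siALDOA 2 (0.116), PANC-1 NC (0.151) or PANC-1 siALDOA 2 (0.0908). By name, OCLN also has a pseudogene, OCLNP1, and whether it affects the level listed for OCLN was not tested. With a pseudocount of 0.1 the log2 difference of OCLN was 2.33. F11R was at 21.7 and 17.2 FPKM in PANC-1 siALDOA 1 and 2 and 18.3 in PANC-1 NC, against 53.6 and 64.2 FPKM in 90 siALDOA 1 and 2 and 59.7 in 90 NC. This 3.10-fold lower level had little spread in either line (log2 difference -1.59, SE 0.152, limma adjusted p = 0.00143). In GENCODE v29, 1853 of 5066 exonic bases of F11R are shared with another protein-coding locus on the same strand, so part of its signal may not be its own.

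Of the scaffold genes, TJP3 (ZO-3) was scarce in PANC-1. It was at 0.249 and 0.103 FPKM in PANC-1 siALDOA 1 and 2 and 0.0931 in PANC-1 NC, which are 17, 6 and 6 fragments, against 6.09 and 7.77 FPKM in 90 siALDOA 1 and 2 and 6.81 in 90 NC. The mean was 46.5-fold lower in PANC-1 (log2 difference -2.78, SE 0.181, limma adjusted p = 4.76e-04), and with a pseudocount of 0.1 the log2 difference was -4.86. TJP1 (ZO-1) was at 2.76 and 8.16 FPKM in PANC-1 siALDOA 1 and 2 and 3.46 in PANC-1 NC, and at 20.4 and 3.44 FPKM in 90 siALDOA 1 and 2 and 6.84 in 90 NC. Its lines overlapped, since the spread inside each line was as large as the difference between them (log2 difference -0.76, 95% interval -2.53 to 1.01, limma adjusted p = 0.456).

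EPCAM was at 7.51 and 17.5 FPKM in PANC-1 siALDOA 1 and 2 and 14.2 in PANC-1 NC, against 154 and 93.2 FPKM in 90 siALDOA 1 and 2 and 88.6 in 90 NC. Every PANC-1 library was below every 90 library, with a mean 8.56-fold lower, yet all PANC-1 libraries kept at least 282 EPCAM fragments (log2 difference -3.03, SE 0.388, limma adjusted p = 0.00351). RAB25 showed the widest gap of the 10. It stood at 0.844 and 0.344 FPKM in PANC-1 siALDOA 1 and 2 and 0.313 in PANC-1 NC, and at 68.1 and 92.0 FPKM in 90 siALDOA 1 and 2 and 82.7 in 90 NC. The mean was 162-fold lower in PANC-1 (log2 difference -5.78, SE 0.221, limma adjusted p = 1.79e-04), from 20, 7 and 7 fragments in PANC-1 siALDOA 1, siALDOA 2 and NC. Both genes that were scarcest in PANC-1, RAB25 and TJP3, were highest there in siALDOA 1, the library with the most genes above 0. Whether that library's wider detection has a part in these values was not tested, and without it the log2 differences were -5.94 for RAB25 and -2.84 for TJP3. RAB25 lies on chromosome 1 (156061160 to 156070514, plus strand), TJP3 on chromosome 19 (3708109 to 3750813, plus strand) and EPCAM on chromosome 2 (47345158 to 47387601, plus strand).

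**Figure D3:**
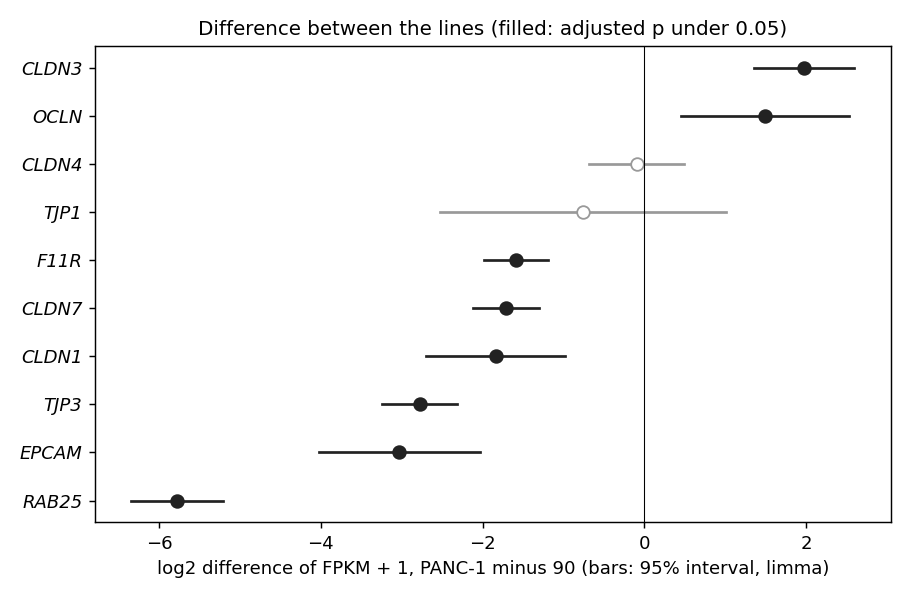
Log2 difference of FPKM + 1, PANC-1 minus 90, for each of the 10 genes, with 95% intervals from limma, filled where the adjusted p was under 0.05. CLDN3 (1.98) and OCLN (1.49) lie to the right of 0, 6 genes lie to the left down to RAB25 (-5.78), and the intervals of CLDN4 and TJP1 include 0.

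By level, the order in PANC-1 was CLDN4 (mean 94.2 FPKM), F11R (19.1), CLDN7 (13.5), EPCAM (13.1), CLDN1 (11.03), CLDN3 (6.45), TJP1 (4.79), OCLN (4.15), RAB25 (0.5003) and TJP3 (0.148). In the 90 line it was EPCAM (112 FPKM), CLDN4 (101), RAB25 (80.9), F11R (59.2), CLDN7 (46.9), CLDN1 (43.0), TJP1 (10.2), TJP3 (6.89), CLDN3 (0.888) and OCLN (0.757). Neighbours whose libraries overlap were CLDN7 with EPCAM, EPCAM with CLDN1, CLDN3 with TJP1 and TJP1 with OCLN in PANC-1. In the 90 line they were EPCAM with CLDN4, CLDN4 with RAB25, CLDN7 with CLDN1, TJP1 with TJP3 and CLDN3 with OCLN.

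Promoter windows are shown for the 2 genes scarcest in PANC-1 and the 2 that were higher there, to compare where they hold the E-box that SNAI and ZEB repressors bind. RefSeq windows (GRCh38.p14) from 250 bases before to 50 after the start were matched for 8 of the 10 genes, not for EPCAM and F11R, and searched for CAGGTG and its reverse complement CACCTG, which is capitalised. Sequences run 5′ to 3′ on the gene's strand, RAB25 at chr1:156060910-156061209 (plus), TJP3 at chr19:3708134-3708433 (plus), CLDN3 at chr7:73770221-73770520 (minus) and OCLN at chr5:69492297-69492596 (plus).
RAB25: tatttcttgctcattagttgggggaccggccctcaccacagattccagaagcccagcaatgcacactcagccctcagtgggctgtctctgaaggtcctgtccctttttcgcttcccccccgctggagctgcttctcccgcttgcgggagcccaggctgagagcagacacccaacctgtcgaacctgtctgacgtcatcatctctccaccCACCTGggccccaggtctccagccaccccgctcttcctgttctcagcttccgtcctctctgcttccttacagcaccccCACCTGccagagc
TJP3: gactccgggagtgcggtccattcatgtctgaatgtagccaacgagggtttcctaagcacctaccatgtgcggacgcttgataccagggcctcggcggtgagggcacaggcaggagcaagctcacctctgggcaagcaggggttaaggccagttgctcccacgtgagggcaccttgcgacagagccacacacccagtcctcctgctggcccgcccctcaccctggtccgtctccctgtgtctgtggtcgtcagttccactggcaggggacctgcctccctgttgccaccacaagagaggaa
CLDN3: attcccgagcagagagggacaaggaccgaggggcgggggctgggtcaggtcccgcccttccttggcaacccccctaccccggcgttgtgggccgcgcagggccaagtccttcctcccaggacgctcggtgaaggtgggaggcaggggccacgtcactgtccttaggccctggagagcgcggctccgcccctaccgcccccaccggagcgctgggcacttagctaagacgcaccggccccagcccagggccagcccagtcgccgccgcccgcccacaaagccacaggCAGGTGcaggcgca
OCLN: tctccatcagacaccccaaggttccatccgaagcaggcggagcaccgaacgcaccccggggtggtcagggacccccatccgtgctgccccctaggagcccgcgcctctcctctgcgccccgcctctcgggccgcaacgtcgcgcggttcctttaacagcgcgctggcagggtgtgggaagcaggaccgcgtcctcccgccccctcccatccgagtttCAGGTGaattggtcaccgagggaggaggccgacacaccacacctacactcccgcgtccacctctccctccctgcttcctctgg
The motif occurred in 4 of the 8 windows and in 20.6% of 27305 RefSeq windows. With the start base as 1 and the base before it as -1, its first base was at -41 and 38 in RAB25, at 37 in CLDN3, at -33 in OCLN and at -88 in TJP1, and none was found in TJP3, CLDN1, CLDN4 or CLDN7. It was thus present in a gene that was lower, in both that were higher and in TJP1, which was not called, and a match is a description of letters, not of binding.

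Other genes of the junction were taken from lists of 97 symbols, of which 95 were in the table and 61 were tested. PANC-1 was lower in 29 and higher in 6 of them, 57.4% called against 38.8% of all tested genes, with a median log2 difference of -0.64. Of the 61, 18 reached the level for testing through only 1 line. All log2 differences below are PANC-1 minus 90.

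Of the other tight junction genes, 6 of 13 tested were lower and 2 higher, against 18.4% lower and 20.4% higher among all tested genes. MARVELD3 reached the level for testing through 90 alone and BVES through PANC-1 alone. Lower were AMOTL1, an angiomotin-like scaffold (-2.37), MARVELD3, a relative of occludin (-2.24), LSR, a protein of tricellular contacts (-1.54), YBX3, a transcription factor that binds ZO-1 (-1.34), and SYMPK (-1.01). MARVELD3 was at 0.181 to 0.298 FPKM in PANC-1 and 4.18 to 5.32 in the 90 line. The higher genes were JAM3, another junctional adhesion molecule, at 18.6 to 22.7 FPKM in PANC-1 against 0.673 to 1.30 in the 90 line (3.43), and BVES, at 2.83 to 5.28 FPKM in PANC-1 and listed at 0 in the 90 line. JAM3 ran opposite to F11R of the same family, as CLDN3 did to CLDN7.

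Of the polarity genes, 4 of 16 tested were lower and 0 higher (25%, against 38.8% of all tested genes). CRB3, the Crumbs protein of the apical membrane, was at 0.0742 to 0.382 FPKM in PANC-1 and 12.7 to 19.2 in the 90 line (-3.82). It reached the level for testing through 90 alone, so its mean levels had to differ. The lethal giant larvae homologs LLGL2 (-1.14) and LLGL1 (-0.94) and PARD3 of the Par complex (-0.74) were lower by less.

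Among partners of EPCAM and RAB25, 8 of 13 tested were lower and 1 higher, against 18.4% lower and 20.4% higher among all tested genes. Of the 8, 4 reached the level for testing through 90 alone, PRSS8 and RAB17 among them. The membrane proteases ST14, or matriptase (-5.14), and PRSS8, or prostasin (-4.07), and their inhibitor SPINT1 (-3.90) were lower, but the related inhibitor SPINT2 was higher (0.91), at 610 to 758 FPKM in PANC-1 and 317 to 443 in the 90 line. RAB17, another epithelial GTPase, was lower (-2.72), whereas RAB11A and RAB11B, the widely expressed relatives of RAB25, averaged 21.9 and 60.8 FPKM in PANC-1 and 21.0 and 57.9 in the 90 line and did not pass.

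Transcription and splicing factors of epithelial cells were lower in 8 of 11 tested, with 2 higher, against 18.4% lower and 20.4% higher among all tested genes. Of the 8, 6 reached the level for testing through 90 alone, among them GRHL2, EHF, KLF5 and ESRP1. CDX2 did so through PANC-1 alone, and the mean levels of these genes had to differ. KLF5 (-4.37), EHF (-4.06), GRHL2 (-3.58), the splicing factor ESRP1 (-3.55) and ELF3 (-3.22) led the lower side. GRHL2 was at 0.0408 to 0.114 FPKM in PANC-1 and 8.57 to 14.5 in the 90 line. GRHL3, of the same family, was higher in PANC-1 (1.35), as was the intestinal factor CDX2 (1.29). Of the E-box repressors 4 of 8 were tested, with 1 higher and 1 lower. SNAI1 reached the level for testing through PANC-1 alone and SNAI2 through 90 alone. Their mean levels had to differ, and their values are a description. SNAI1 was at 6.12 to 8.52 FPKM in PANC-1 and 0.198 to 0.553 in the 90 line (2.60), and SNAI2 was at 0.0688 to 0.325 FPKM in PANC-1 and 18.2 to 32.2 in the 90 line (-4.40). ZEB1, which also reached the level for testing through PANC-1 alone, averaged 1.79 FPKM in PANC-1 and 0.288 in the 90 line. Its libraries overlapped between the lines and it was not called (0.86, SE 0.627). Of the mesenchymal markers, the 3 higher in PANC-1 were VIM (1.63), CDH2 (1.75) and SPARC (1.57), and FN1 was lower (-3.06). SPARC passed the level for testing through PANC-1 alone and FN1 through 90 alone, so the mean levels of both had to differ. VIM was at 1976 to 2322 FPKM in PANC-1 and 593 to 802 in the 90 line, and FN1 at 0.369 to 0.510 FPKM in PANC-1 and 10.8 to 11.1 in the 90 line.

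**Figure D4:**
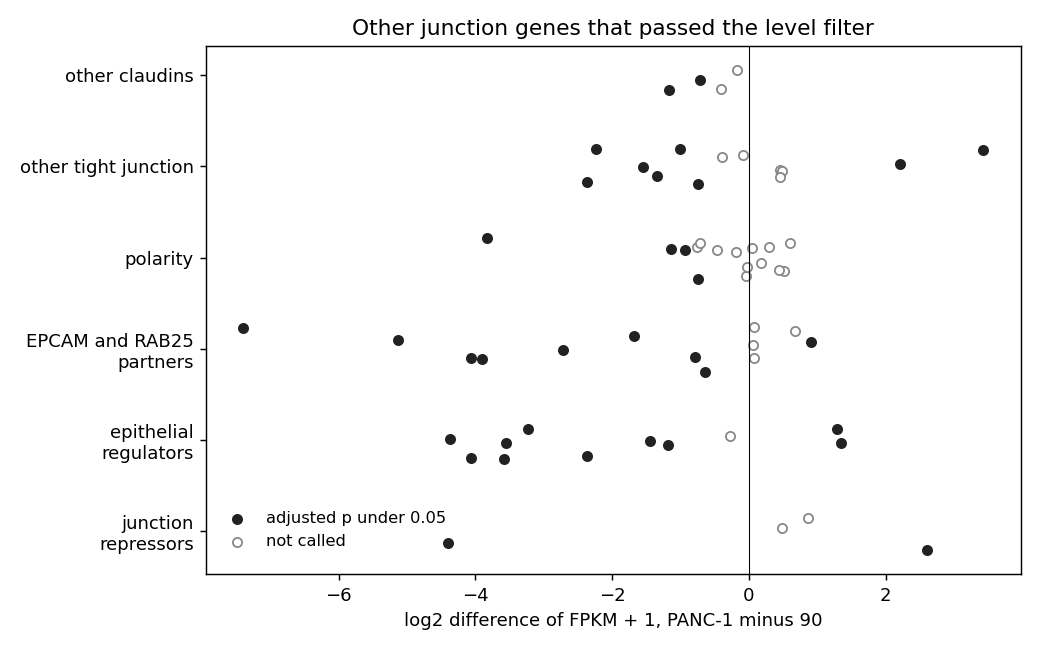
Log2 difference of FPKM + 1, PANC-1 minus 90, for the 61 tested genes of the other junction lists, black where the limma adjusted p was under 0.05. Epithelial regulators reach to -4.37 (KLF5), while 14 of 16 polarity genes lie within 1 of 0. Intervals are not drawn and are wide for some uncalled polarity genes, so a place near 0 does not show likeness.

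The comparison of siALDOA with NC asks whether the junction genes changed with ALDOA. Over both lines limma called 0 of the 10 genes and 0% of all tested genes. Unadjusted p-values under 0.05 were found for 0 of the 10 and for 0.341% of all. The log2 changes, siALDOA minus NC, ran from -0.06 for CLDN7 to 0.36 for TJP1, whose 95% interval was -1.52 to 2.23. Within PANC-1, within the 90 line and for the difference between their effects, limma again called 0 of the 10 genes and 0% of all genes. Unadjusted p-values under 0.05 were found for 0 of the 10 in each, against 0.167% of all genes in PANC-1, 0.262% in the 90 line and 0.191% for the difference. The intervals are wide, and 1 NC library per line carries every change.

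Changes of single libraries went with GC content. The 5 genes whose longest transcript has a GC content of 39.9% to 47.6% are OCLN, CLDN1, TJP1, EPCAM and F11R, and the 5 at 56.2% to 69.2% are RAB25, CLDN4, CLDN7, TJP3 and CLDN3. In 90 siALDOA 1, 4 of the 5 low-GC genes were above NC and 0 of the 5 high-GC genes. In PANC-1 siALDOA 1, 2 of the 5 low-GC and 5 of the 5 high-GC genes were above NC. In PANC-1 siALDOA 2 these numbers were 4 and 3, and in 90 siALDOA 2 they were 2 and 4. Values after a correction for the GC trend are given for TJP1, CLDN1, OCLN and EPCAM, and for CLDN3 under the flagged results.

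**Figure D5:**
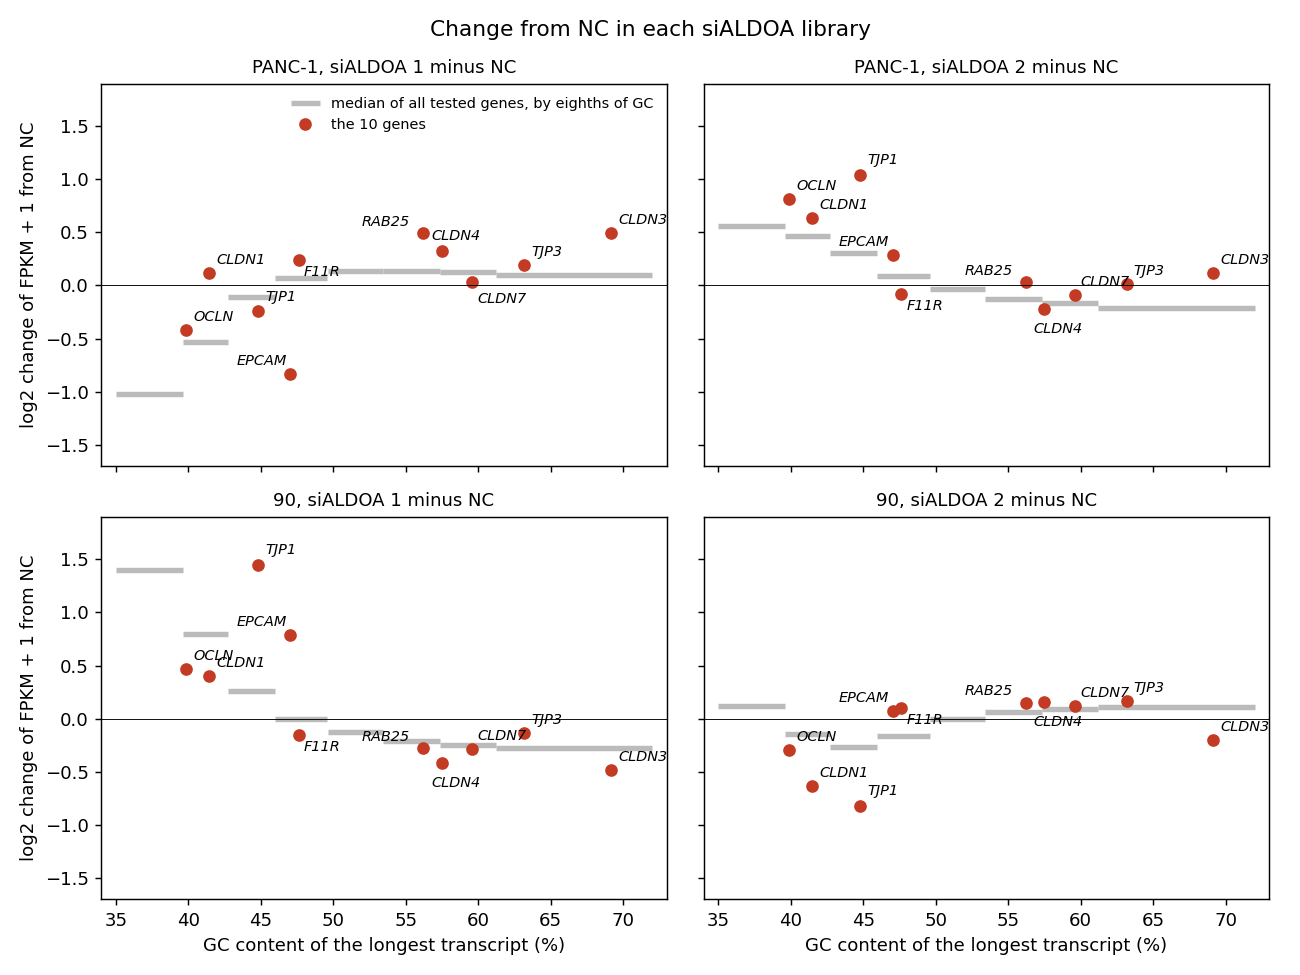
Log2 change of FPKM + 1 from the NC library of the same line against GC content of the longest transcript, for the 10 genes (points) and as the median of all tested genes in 8 classes of GC content (bars). TJP1 lies farthest above 0 in 90 siALDOA 1 (1.45), and EPCAM farthest below 0 in PANC-1 siALDOA 1 (-0.83).

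TJP1 moved most between libraries. Relative to NC its log2 change was -0.25 and 1.04 in PANC-1 siALDOA 1 and 2 and 1.45 and -0.82 in 90 siALDOA 1 and 2. The 2 siALDOA libraries of each line thus lay on opposite sides of NC, and in the 90 line on 2852 and 469 fragments in siALDOA 1 and 2 against 871 in NC, well beyond counting error. After the GC correction the changes were -0.03 and 0.75 in PANC-1 and 1.08 and -0.54 in the 90 line. CLDN1 and OCLN, lower still in GC content, were likewise split in the 90 line, at 0.41 and -0.63 for CLDN1 and 0.47 and -0.29 for OCLN in siALDOA 1 and 2. After the GC correction neither was split there, with -0.50 and -0.47 for CLDN1 and -0.69 and -0.25 for OCLN, so the sign in siALDOA 1 turned for both. In PANC-1 the change of OCLN was -0.42 and 0.81 in siALDOA 1 and 2 before the correction and 0.44 and 0.28 after it, while CLDN1 was above NC in both libraries either way (0.12 and 0.63 before, 0.76 and 0.16 after).

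EPCAM was above NC in both 90 siALDOA libraries, but its log2 change of 0.43 over them (SE 0.611, limma adjusted p = 1) came mostly from siALDOA 1 (0.79), without which it was 0.07. After the GC correction the libraries were closer, at 0.66 and 0.31 in siALDOA 1 and 2, and the change over both was 0.48. In PANC-1 EPCAM was at -0.83 and 0.29 in siALDOA 1 and 2, and at -0.80 and 0.13 after the correction. Before correction CLDN4, CLDN7, F11R and TJP3 stayed closer to NC, within 0.42 in each siALDOA library of either line. TJP3 was near the detection floor in PANC-1.

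By likeness, the genes outside the lists closest to the mean log2(FPKM + 1) of the 10 genes over the 6 libraries were COCH (Pearson r = 0.999), ERLIN2 (0.998), CCDC71L (0.998), HIST2H2BB (0.998) and LOC101927125 (0.997). COCH was at 0.461 and 0.926 FPKM in PANC-1 siALDOA 1 and 2 and 0.353 in PANC-1 NC, against 21.3 and 12.4 FPKM in 90 siALDOA 1 and 2 and 17.5 in 90 NC. All 5 were lower in every PANC-1 library than in any 90 library, and 135 of 12509 genes outside the lists reached r = 0.99. The 6 points fall into the 2 lines, so r mainly describes the gap between them.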

How the data were processed

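Poly(A)-selected RNA of 6 libraries was sequenced, and the authors deposited FPKM values per gene and library. HISAT2, featureCounts and the build hg38 are named per the submitters' processing notes. Their versions, the annotation and the use of strand were not given in the sources used here. Of 41769 rows, 1 had no gene name.

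FPKM values keep whole fragments. Among short noncoding RNA genes, 96.2% to 97.3% of values multiplied by the RefSeq length were whole multiples of 1 step (tolerance 0.01), which gave the depth, 17773531 to 21844207 fragments. With it, the gene length that makes all values whole was found for 99.6% of 1000 sampled genes, which gives the fragments quoted. Intervals and floors (3 fragments on 1 kb are 0.137 to 0.169 FPKM) cover counting error only.

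Values were tested as log2(FPKM + 1), which understates changes of low genes, with limma 3.58.1 (R 4.3.3, trend in the prior variance) on the 12592 genes that averaged 1 FPKM or more. The lines and siALDOA over both lines used additive terms (3 residual degrees of freedom), and within-line effects the 4 group means (2). A call is a Benjamini-Hochberg adjusted p under 0.05 over all tested genes. GC content came from each symbol's longest transcript in GENCODE v29 (11405 tested genes), and its correction subtracted a lowess curve per library. The fit was tested on simulated data. The genes, lists and tests were chosen with earlier results of these data known. All 10 genes are named, and of the other lists up to 5 called genes per direction with the largest difference, apart from one gene not reported here, those said to be singled out, RAB11A, RAB11B and ZEB1 (shown as uncalled relatives) and markers.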

Additional observations from a re-analysis of the deposited data

Results flagged for a closer look

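CLDN3 was above NC in both PANC-1 siALDOA libraries (8.01 and 5.95 FPKM in siALDOA 1 and 2 against 5.40 in NC) and below NC in both 90 siALDOA libraries (0.564 and 0.907 against 1.19), so every library of a line moved the same way and the lines moved apart. The difference of the effects, PANC-1 minus 90, was 0.65 on the log2 scale (SE 0.521, 95% interval -0.79 to 2.09) and did not pass limma (unadjusted p = 0.279, adjusted p = 1). The values of the 90 line come from 14, 22 and 27 fragments in siALDOA 1, siALDOA 2 and NC. The exact 95% counting interval of NC, 0.786 to 1.73 FPKM, overlaps those of siALDOA 1 (0.308 to 0.946) and siALDOA 2 (0.569 to 1.37). In PANC-1 the interval of siALDOA 1 lies above that of NC (4.55 to 6.37), and that of siALDOA 2 (5.01 to 7.01) overlaps it. The difference was 0.46 to 1.01 over the 13 alternatives run, past the threshold in 0 of them. After the GC correction the log2 change of CLDN3 from NC was 0.41 in PANC-1 siALDOA 1 and 0.41 in siALDOA 2. In 90 siALDOA 1 and 2 it was -0.24 and -0.29. CLDN1 and OCLN, given above, were then also above NC in PANC-1 and below it in the 90 line. The pattern was thus not particular to CLDN3.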

How the results depend on the processing

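Between the lines, 6 to 9 of the 10 genes and 24 to 47 of the other junction genes were called over 19 alternatives (8 and 35 as reported), and leaving out each library gave 6 to 8 and 24 to 34. CLDN3, CLDN7, EPCAM, F11R, RAB25 and TJP3 kept direction and call in all 19. CLDN1 lost its call in 2 and OCLN in 7, all with the same direction. CLDN4, not called, ran from -0.27 to 0.05 with each library left out, above 0 without 90 siALDOA 2 (0.054) or PANC-1 siALDOA 2 (0.048). TJP1 was at 0.11 without siALDOA 1 of both lines and was called in the crossed block below (limma adjusted p = 0.0433, over alternatives 0.0433 to 0.872). The siALDOA change of TJP1 over both lines (0.36) ran from -0.12 to 0.85 with each library left out, and was -0.53 without siALDOA 1 of 90 and siALDOA 2 of PANC-1, an alternative chosen after seeing the data. The cause was not tested. With the siALDOA number as a replicate block across the lines, 7 of the 10 genes and 27 others were called, and OCLN was not (adjusted p = 0.0855). Same-numbered siALDOA libraries deviated oppositely (r = -0.86 over 12592 genes). The GC trend was not removed from these values. Its lowest class had a median change from NC of 1.40 in 90 siALDOA 1 and -1.02 in PANC-1 siALDOA 1. The r therefore cannot tell whether the number pairs the libraries. With the crossed numbers, added after seeing the data, 9 and 42 were called. Over all genes 4882 were called between the lines as reported, 2422 to 4110 with each library left out, 7201 without siALDOA 1 of both lines and 7594 with crossed numbers. For siALDOA against NC, 17 genes were called over both lines without siALDOA 1 of both lines, and without a filter 38 were called in 90 and 49 in PANC-1, 0 of them among the 10. Within-line effects could not be fitted without that line's NC or with siALDOA 1 of both lines left out.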
